A study of Mus musculus with 12 samples.

Results

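Integrins are the adhesion receptors with which leukocytes hold on to other cells, to matrix and to opsonised particles. The 10 integrin genes described here were taken by name, among the 36439 genes of the count tables, and all 10 passed the filter on low counts in both comparisons. They are the alpha chain genes Itgal, Itgam, Itgax, Itgae, Itga4, Itga6 and Itga9 and the beta chain genes Itgb2, Itgb7 and Itgb5. Their transcripts were measured by RNA sequencing of tumour-associated macrophages (TAMs), cells of the innate immune system that settle in tumours, in 12 libraries that form 4 groups of 3. All tumours were Lewis lung carcinomas, a transplantable mouse lung cancer, grown under the skin of C57BL/6 mice. MRC1+ TAMs carried the macrophage protein F4/80 and the mannose receptor MRC1, and were set against CD11c+ TAMs, which carried F4/80 and CD11c. The miR-511-3p TAMs were F4/80+ cells that overexpressed the microRNA miR-511-3p, and were set against miR-511-3p-mut TAMs, F4/80+ cells that overexpressed a mutated form of it. The sample names carry SFFV, a prefix that they do not explain, for both overexpression groups, and no age or sex was used here. The labels do not say whether libraries of a group came from separate mice, so p-values reflect how far these libraries scatter, which may be a technical matter.

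An integrin is a pair of an alpha and a beta chain, and the chain pair sets what it binds. The beta 2 chain (Itgb2, CD18) is the beta chain of leukocytes and pairs with CD11a (Itgal) to form LFA-1, with CD11b (Itgam) to form Mac-1, a complement receptor, with CD11c (Itgax) to form another complement receptor, and with CD11d (Itgad). The beta 7 chain (Itgb7) pairs with alpha 4 (Itga4) to bind the gut addressin MAdCAM-1, or with alpha E (Itgae, CD103) to bind E-cadherin. Alpha 4 also pairs with beta 1, as do the laminin receptor chain alpha 6 (Itga6) and alpha 9 (Itga9), while beta 5 (Itgb5) pairs with alpha V. In mouse tissues CD11b marks most myeloid cells, and CD11c and CD103 are used to tell dendritic cells and some macrophages apart.

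The overexpressed microRNA is shown first because its seed sets which 3′ UTRs it could pair with. The mature mouse sequence, from RefSeq on GRCm38.p6 at chr2:14261051-14261072 on the plus strand, is given with its seed, bases 2 to 8, in capitals.
miR-511-3p: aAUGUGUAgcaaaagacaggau
A site for the whole seed reads TACACAT, and 0 of the 10 integrin 3′ UTRs held it. The shorter site ACACATA, which matches bases 2 to 7 and ends in an A, was found in 4 of the 10, namely in Itgax, Itgam, Itga4 and Itga9. Either site was present in 19.6% of the 19631 mouse genes with an annotated 3′ UTR of at least 20 bases, taking GENCODE M21 on GRCm38. That share was not matched for length, and Itga4 (6508 bases) and Itga9 (3671 bases) had the longest 3′ UTRs of the 10. So 4 of 10 beside 19.6% is no measure of an excess of sites. The 5 sites are given as transcript sequence with the match in capitals, since they show the match and what surrounds it. Only perfect matches on the transcript strand were searched, and a match is not evidence of binding.
Itgax: ctacccagggACACATAgtcagcttgt
Itgam, first: aagctgatggACACATAtgttgttgct
Itgam, second: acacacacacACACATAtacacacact
Itga4: tgcataaatcACACATAcagattggca
Itga9: tttaaggatgACACATAcgtgatcata
The second Itgam site lies at the end of a stretch of repeated AC.

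Promoters are shown for 3 members whose transcripts differed in how they moved: Itgam, which did not pass the test between the sorted groups, Itgb7, which was lower in MRC1+ TAMs, and Itgax, which the gate itself set. RefSeq promoters of 250 bases before to 50 after the start were matched for 6 of the 10 members, the others named here being Itga4, Itga9 and Itgb5. The letters GAGGAA, the core to which the myeloid factor PU.1 binds, were searched on both strands and are in capitals (TTCCTC on the minus strand). They occurred 3 times in Itgam, once in Itgb7 and 0 times in Itgax, Itga4, Itga9 and Itgb5, and 28.3% of 32851 mouse promoters of this length held them at least once.
Itgam, chr7:128062390-128062689, plus strand, GRCm38.p6: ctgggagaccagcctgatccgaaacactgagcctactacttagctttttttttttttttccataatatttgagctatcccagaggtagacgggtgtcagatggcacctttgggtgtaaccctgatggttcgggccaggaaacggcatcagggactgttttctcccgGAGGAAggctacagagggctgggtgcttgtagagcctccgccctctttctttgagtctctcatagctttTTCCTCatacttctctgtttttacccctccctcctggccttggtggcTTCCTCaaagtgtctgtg
Itgb7, chr15:102231886-102232185, minus strand, GRCm38.p6: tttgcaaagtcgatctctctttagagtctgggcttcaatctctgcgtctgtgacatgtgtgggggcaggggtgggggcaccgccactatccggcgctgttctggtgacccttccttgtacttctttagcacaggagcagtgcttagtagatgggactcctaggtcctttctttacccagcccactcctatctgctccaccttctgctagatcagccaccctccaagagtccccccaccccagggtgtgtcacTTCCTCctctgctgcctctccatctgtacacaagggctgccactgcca
Itgax, chr7:128129300-128129599, plus strand, GRCm38.p6: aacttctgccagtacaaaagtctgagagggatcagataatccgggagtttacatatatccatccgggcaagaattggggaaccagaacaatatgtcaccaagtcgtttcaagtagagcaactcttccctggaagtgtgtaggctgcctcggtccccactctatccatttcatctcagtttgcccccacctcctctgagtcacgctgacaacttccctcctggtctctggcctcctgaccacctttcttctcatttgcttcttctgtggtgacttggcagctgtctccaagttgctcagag
Itgal, Itgam and Itgax all lie on chromosome 7. In order of start position, 1 protein-coding gene comes between Itgam and Itgax, 0 between Itgax and Itgad, and 38 between Itgal and Itgam. This order also counts a gene that overlaps its neighbour.

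Reads counted to genes were 15664146 to 17689064 in MRC1+ and 10824918 to 17318957 in CD11c+ libraries, and 23326219 to 27186233 in miR-511-3p and 22906418 to 27890433 in miR-511-3p-mut libraries. Reads outside genes made up 19.7% to 26.6% of each sorted library but 7.64% to 10.4% of each overexpression library, so levels are not tested between these experiments. Mir511, the hairpin gene of the microRNA, had 66, 63 and 80 reads in miR-511-3p libraries, against 3, 9 and 5 in miR-511-3p-mut libraries, a log2 fold change of 3.56 ± 0.39 (edgeR adjusted p = 0.482). Whether reads of the mutated hairpin align to Mir511 is not known. Mrc1 averaged higher in the MRC1+ gate, by 1.23 ± 0.13 (log2 fold change ± SE), and still had 1447 to 1826 CPM in CD11c+ TAMs. CPM are read counts relative to the library's total in genes that passed the filter on low counts, scaled by TMM. Genes that mark macrophages summed to 7642 to 9838 CPM in MRC1+ and 7320 to 10403 CPM in CD11c+ TAMs. Lyz2 was on average the largest part of these sums. Of the 8 genes, 2 were higher in MRC1+ TAMs and 0 lower, where 6.91% of all genes were higher and 9.71% lower. Adgre1, which codes for F4/80, was higher by 0.80 ± 0.14 (edgeR adjusted p = 0.00733). Mertk was higher by 0.54 ± 0.13 (edgeR adjusted p = 0.027), a call lost without any 1 of the MRC1+ libraries or the third CD11c+ library. Without the first CD11c+ library 3 were lower.

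Between the sorted groups, integrin transcripts of leukocyte type were mostly lower in MRC1+ TAMs. Of the 10 genes, 6 were lower, namely Itgax, Itgal, Itgae, Itga4, Itgb7 and Itgb2, and 1, Itga6, was higher, at an adjusted p under 0.05 of the quasi-likelihood test of edgeR over all genes. Itgam, Itga9 and Itgb5 did not pass. Of all 15622 genes tested, 9.71% were lower and 6.91% higher in MRC1+ TAMs. The median log2 fold change was -1.08 over the 10 genes and 0.012 over all genes tested. The libraries of both groups did not overlap for 8 of the 10 genes, against 38.3% of all genes tested. Leaving out Itgax, whose direction the sort fixes, 5 of 9 were lower and 1 higher, 7 of 9 did not overlap, and the median was -0.98. The genes were chosen with earlier results of these data known, so setting them against all genes is a description and no test. Fewer cells of a type and less RNA per cell cannot be told apart in such bulk libraries.

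**Figure D1:**
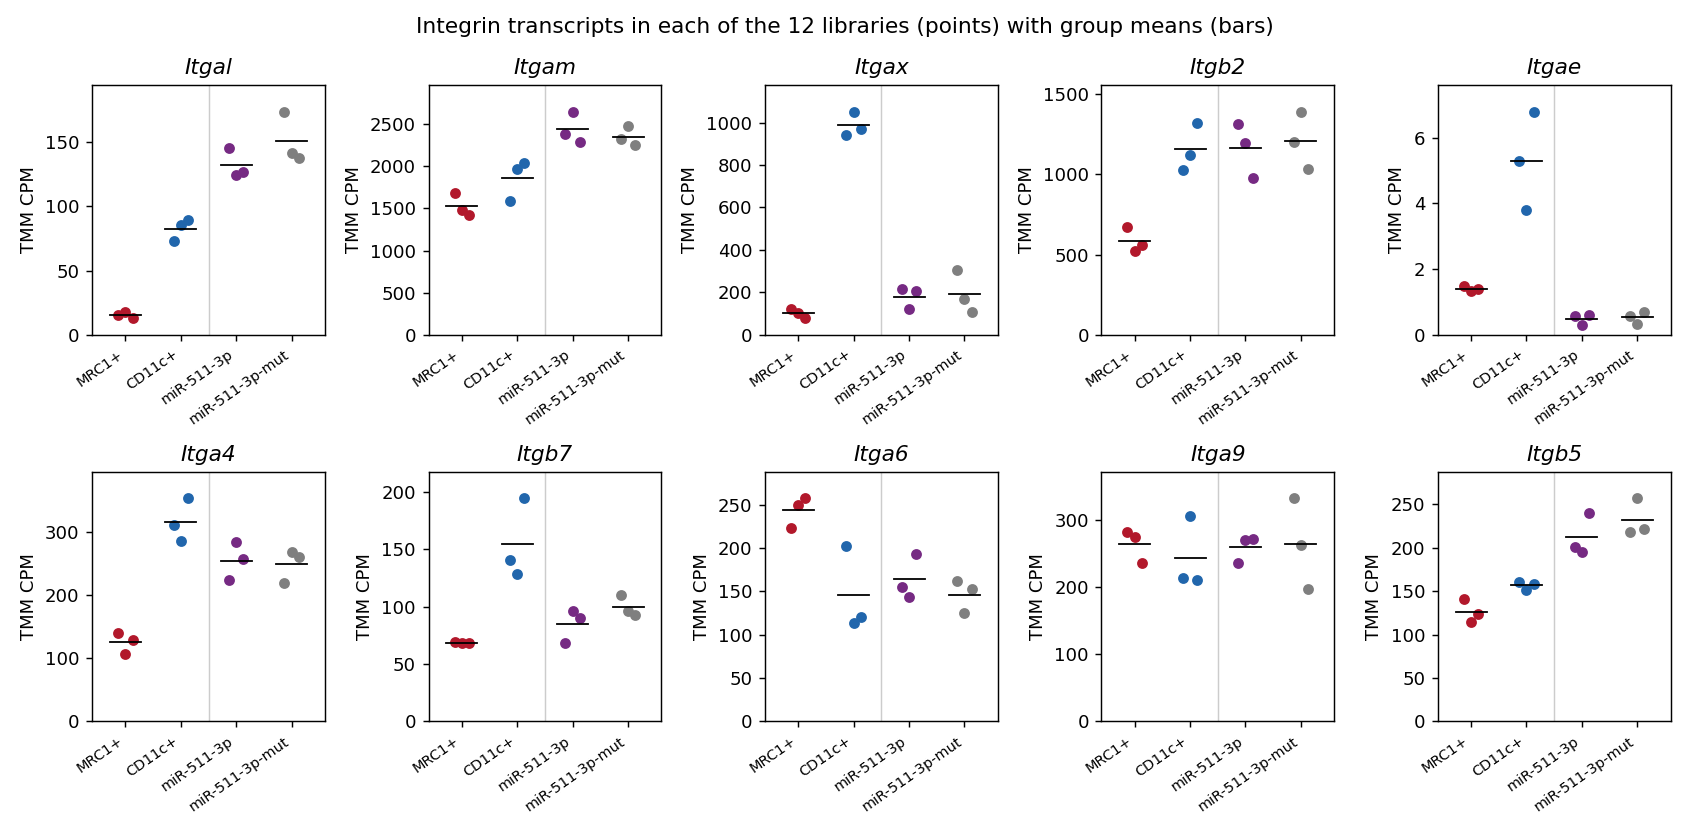
TMM-scaled CPM (vertical axis, from 0) of the 10 integrin genes in each library (points, 3 per group) with the group mean (bar). The line in each panel parts the sorted groups from the overexpression groups, which were not tested against each other. The 3 MRC1+ libraries lie below the 3 CD11c+ libraries for Itgal, Itgax, Itgb2, Itgae, Itga4, Itgb7 and Itgb5 and above them for Itga6.

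Within the beta 2 family, Itgax followed the gate. It had 123, 104 and 78.6 CPM in the MRC1+ libraries, against 943, 1051 and 972 CPM in the CD11c+ libraries. The groups did not overlap, and the log2 fold change was -3.28 ± 0.17, which the sort on CD11c protein fixes in direction and which is no finding. Itgal, the alpha chain of LFA-1 that binds ICAM-1, had 15.1, 17.7 and 12.8 CPM in MRC1+ TAMs, against 72.7, 85.7 and 89.6 CPM in CD11c+ TAMs. Every MRC1+ library lay far under every CD11c+ library, and the log2 fold change was -2.44 ± 0.14 (edgeR adjusted p = 5.23e-05). Itgal kept this call under each of the 14 alternatives run, with log2 fold changes of -2.58 to -2.31.

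Itgb2, the chain that all 4 alpha chains of the family share, had 674, 522 and 557 CPM in MRC1+ TAMs, against 1025, 1122 and 1322 CPM in CD11c+ TAMs. It was lower in all MRC1+ libraries, with a log2 fold change of -0.98 ± 0.14 (edgeR adjusted p = 0.00253). Itgam, the alpha chain of Mac-1, had 1685, 1477 and 1419 CPM in MRC1+ TAMs, against 1587, 1970.1 and 2038 CPM in CD11c+ TAMs. Itgam shares 3450 of its 5024 exon bases with the gene Gm49368 on the same strand in the annotation used here, an entry that the count tables do not hold. The groups of Itgam overlapped, because the first CD11c+ library lay under the first MRC1+ library. The log2 fold change of Itgam was -0.29 ± 0.13, with a 95% interval of -0.59 to 0.01 (edgeR adjusted p = 0.161). Without the first CD11c+ library it was -0.39 and passed (edgeR adjusted p = 0.0293). Itgad, the remaining alpha chain and not among the 10, averaged 2.12 ± 0.733 CPM in MRC1+ and 14.1 ± 1.47 CPM in CD11c+ TAMs (SD, n = 3 each). Its log2 fold change was -2.72 ± 0.24 (edgeR adjusted p = 0.000307).

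The alpha chains were also compared within each library, where the scaling of libraries plays no part. Per kilobase of merged exon length, Itgam made up 92.2%, 92.2% and 93.8% of the reads of the 4 alpha chains in MRC1+ libraries, against 60.1%, 62.5% and 64.9% in CD11c+ libraries. Itgax made up 7.02%, 6.79% and 5.44% in MRC1+ libraries, against 37.3%, 34.9% and 32.4% in CD11c+ libraries. These shares include the gated gene and are given as a description. With Itgax left out, Itgam still took 99.1% ± 0.146 in MRC1+ and 95.9% ± 0.105 in CD11c+ TAMs, and Itgal 0.756% ± 0.129 in MRC1+ and 3.26% ± 0.0852 in CD11c+ TAMs (SD, n = 3 each).

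The log2 ratio of Itgam to Itgal was 7.19, 6.77 and 7.18 in MRC1+ libraries, against 4.84, 4.91 and 4.89 in CD11c+ libraries. The groups did not overlap, and the difference of 2.17 had the smallest p that an exact two-sided permutation test of 3 against 3 can give, 0.1. A second pair of ratios was chosen after values had been seen. The log2 ratio of Itgam to Itgb2 was 0.60, 0.78 and 0.63 in MRC1+ libraries, against -0.09, 0.09 and -0.09 in CD11c+ libraries, a difference of 0.70 (exact permutation p = 0.1). For the 4 alpha chains together over Itgb2 it was 0.72, 0.90 and 0.72 in MRC1+ libraries, against 0.65, 0.77 and 0.53 in CD11c+ libraries. These overlapped, with a difference of 0.13. The sum holds Itgax, which the gate sets and which was 6.41% of it in MRC1+ and 34.9% in CD11c+ TAMs on average, so its overlap is a description of these sorted cells.

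**Figure D2:**
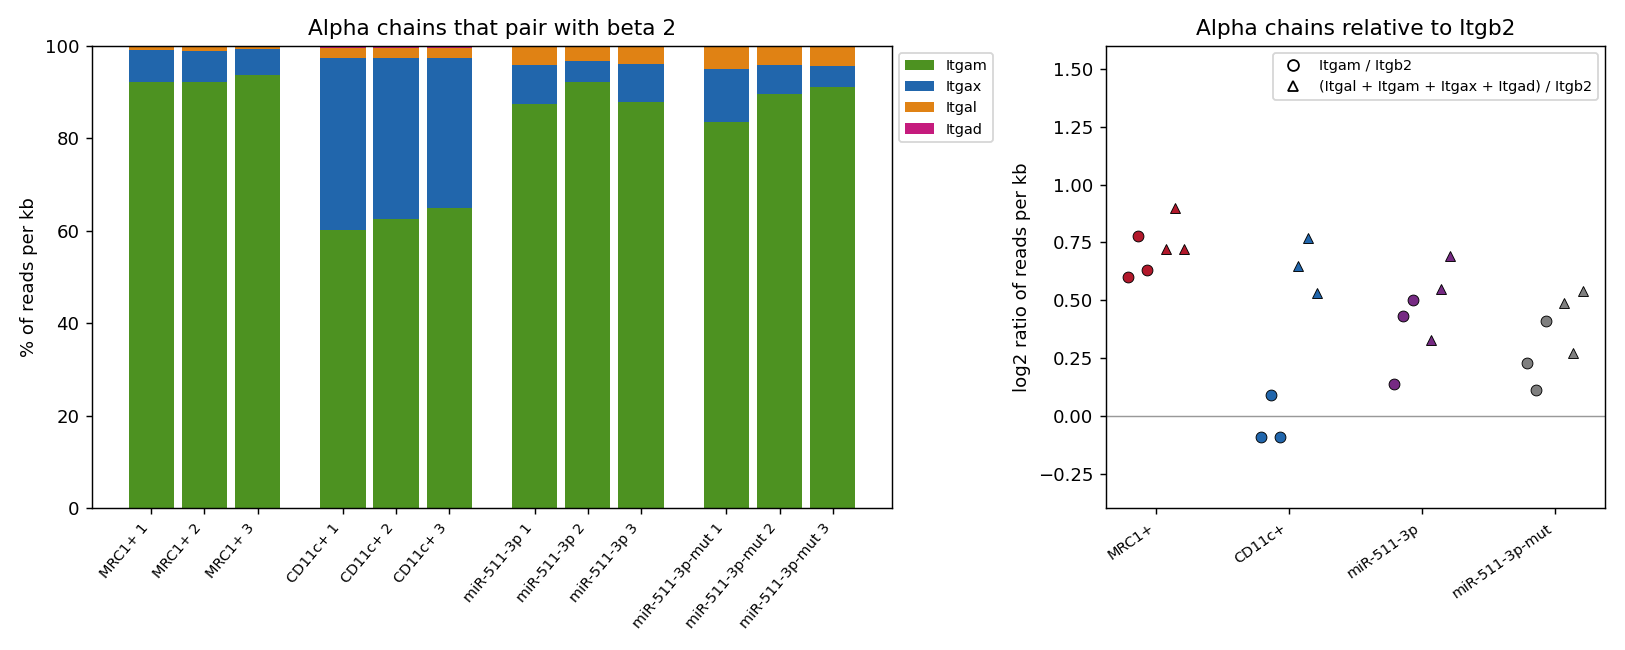
Left, share (% of reads per kilobase) of the 4 alpha chains that pair with beta 2 in each library. Right, log2 ratio of reads per kilobase of Itgam to Itgb2 (circles) and of the summed alpha chains to Itgb2 (triangles), 3 libraries per group. Itgam takes 92.2% to 93.8% in MRC1+ and 60.1% to 64.9% in CD11c+ libraries, where Itgax takes most of the rest, and the circles of the sorted groups part while the triangles overlap.

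Transcripts of all chains that form the beta 7 pairs were lower in MRC1+ TAMs, while the pairs themselves were not measured. Itgb7 had 68.8, 68.0 and 68.0 CPM in MRC1+ TAMs, against 140.3, 128 and 194 CPM in CD11c+ TAMs. The 3 MRC1+ values were nearly equal and all lay below the CD11c+ values, with a log2 fold change of -1.17 ± 0.15 (edgeR adjusted p = 0.00159). Itga4, which lets leukocytes bind VCAM-1 and MAdCAM-1, had 139.7, 107 and 129 CPM in MRC1+ TAMs, against 311.2, 286 and 353 CPM in CD11c+ TAMs. The groups lay well apart, at -1.34 ± 0.13 (edgeR adjusted p = 0.000398). In the annotation, 1124 of the 13978 exon bases of Itga4 are shared with Cerkl on the other strand, and Cerkl itself had only 7 to 24 reads in each of these libraries.

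Itgae, the CD103 chain, was a rare transcript, with 24, 25 and 23 reads in MRC1+ libraries, against 90, 64 and 66 in CD11c+ libraries. As levels these were 1.49, 1.32 and 1.40 CPM in MRC1+ TAMs, against 5.28, 3.81 and 6.79 CPM in CD11c+ TAMs. The groups did not overlap, and the log2 fold change was -1.89 ± 0.26 (edgeR adjusted p = 0.00228). The log2 ratio of Itgae to Itgb7 was -6.25, -6.41 and -6.33 in MRC1+ libraries, against -5.46, -5.80 and -5.56 in CD11c+ libraries, a difference of -0.72 (exact permutation p = 0.1). Ratios of Itga4 to Itgb7 (log2) overlapped between the groups, at -1.47 ± 0.19 in MRC1+ and -1.28 ± 0.17 in CD11c+ TAMs (SD, n = 3 each; exact permutation p = 0.3). Itgae thus lay further under Itgb7 in each MRC1+ library than in any CD11c+ library, while the ratios of Itga4 overlapped.

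Markers of dendritic and NK cells moved with these differences. The 12 conventional dendritic cell genes summed to 199 to 224 CPM in MRC1+ and 568 to 779 CPM in CD11c+ TAMs, and 9 of the 12 were lower in MRC1+ TAMs (9.71% of all genes were). Among them Flt3, a receptor of dendritic cells and their precursors, had 1.55, 1.32 and 0.792 CPM in MRC1+ TAMs, against 19.8, 18.2 and 38.6 CPM in CD11c+ TAMs. Xcr1, which marks the cross-presenting class of these cells, had 1.80, 1.0 and 1.46 CPM in MRC1+ TAMs, against 5.45, 5.30 and 8.65 CPM in CD11c+ TAMs. The other 3 of the list, Clec9a, Cadm1 and Fscn1, did not pass. Their log2 fold changes were -0.50, -0.52 and -0.25 (edgeR adjusted p = 0.267, 0.0641 and 0.333). None of the 12 was at 0 in any sorted library. The part of these cells in the integrin differences was not tested.

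NK cell genes summed to 7.13 to 11.1 CPM in MRC1+ and 62.0 to 79.0 CPM in CD11c+ TAMs, and 4 of the 6 tested were lower in MRC1+ TAMs (9.71% of all genes were). Without the first MRC1+ or the second CD11c+ library 2 were lower. Most of that sum was Klrk1, a receptor that other leukocytes also carry, at 3.92 ± 0.938 CPM in MRC1+ and 55.9 ± 7.07 CPM in CD11c+ TAMs (SD, n = 3 each). T cell genes, which could carry Itgal, Itgae, Itga4 and Itgb7, summed to 71.6 to 137.5 CPM in MRC1+ and 29.4 to 107 CPM in CD11c+ TAMs, most of it Cd4. The T cell receptor component Cd3e had 2, 7 and 8 reads in MRC1+ libraries, against 7, 6 and 1 in CD11c+ libraries, too few to pass the filter. Of the 8 T cell genes tested, 1 was lower in MRC1+ TAMs, Cd5, a share near the 9.71% of all genes, and its call was lost on leaving out library 1 or 2 of MRC1+ or library 2 or 3 of CD11c+ TAMs. B cell genes summed to 6.85 to 7.15 CPM in MRC1+ and 6.20 to 6.79 CPM in CD11c+ TAMs, and neutrophil genes to 79.3 to 100.2 CPM in MRC1+ and 91.7 to 151.9 CPM in CD11c+ TAMs.

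Of the chains that pair with beta 1 or alpha V, Itga6 stood out in direction. It had 224, 249.7 and 257 CPM in MRC1+ TAMs, against 202, 114 and 120.5 CPM in CD11c+ TAMs. All MRC1+ libraries lay above all CD11c+ libraries, but the first CD11c+ library came close to them. The log2 fold change was 0.74 ± 0.21 (edgeR adjusted p = 0.0456). The call was lost when any of the 3 MRC1+ libraries or the second or the third CD11c+ library was left out (edgeR adjusted p = 0.091 to 0.148), and without the first CD11c+ library it was 1.05 (edgeR adjusted p = 0.000171). Alpha 6 is also a chain of epithelial cells, and 4 of the 5 epithelial and carcinoma genes tested were higher in MRC1+ TAMs (6.91% of all genes were), with sums of 145 to 216 CPM in MRC1+ and 58.3 to 126.7 CPM in CD11c+ TAMs. That count was 0 without the second or the third MRC1+ library or the second CD11c+ library, 1 without the third CD11c+ library and 2 without the first MRC1+ library. Epcam, the defining epithelial gene among them, was lower and near 0, at 0.0938 ± 0.0558 CPM in MRC1+ and 1.37 ± 0.198 CPM in CD11c+ TAMs (SD, n = 3 each). Platelets also carry alpha 6, and platelet genes summed to 442 to 552 CPM in MRC1+ and 128 to 197 CPM in CD11c+ TAMs, nearly all of it Pf4 and Ppbp. The part of these cells in the Itga6 difference was not tested.

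The first CD11c+ library, without which Itgam passed and the fold change of Itga6 was larger, also stood apart in fibroblast genes. These summed to 623 to 871 CPM in MRC1+ libraries, and to 1195, 273 and 332 CPM in CD11c+ libraries. Itga9, a receptor chain for tenascin C and VCAM-1, had 283, 275 and 236 CPM in MRC1+ TAMs, against 214, 306.8 and 210.2 CPM in CD11c+ TAMs. The groups overlapped, with a log2 fold change of 0.12 ± 0.16 and a 95% interval of -0.25 to 0.48 (edgeR adjusted p = 0.646). Itgb5, which with alpha V binds vitronectin, had 141, 115 and 124 CPM in MRC1+ TAMs, against 160.5, 151 and 158 CPM in CD11c+ TAMs. All MRC1+ values lay below all CD11c+ values, yet the difference of -0.31 ± 0.10 did not pass (edgeR adjusted p = 0.0648). Itgb5 passed when the replicate number was added as a block, with an edgeR adjusted p of 0.0473, and without the first MRC1+ library, at -0.38 (edgeR adjusted p = 0.0429).

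**Figure D3:**
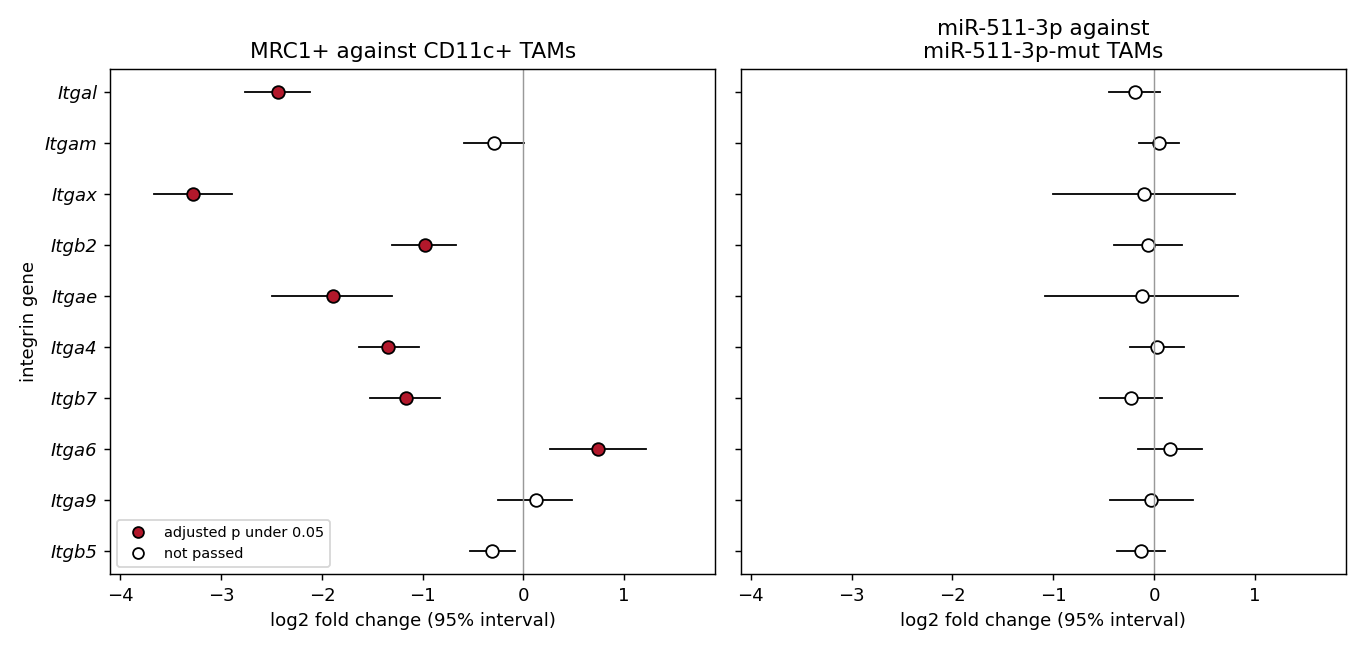
Log2 fold change (horizontal axis) of each integrin gene with its 95% interval, not adjusted for the number of genes, for MRC1+ against CD11c+ TAMs (left) and miR-511-3p against miR-511-3p-mut TAMs (right), from 3 libraries per group. Filled points have an adjusted p under 0.05. On the left 6 genes lie below 0 and Itga6 above it among the filled points, and on the right no point is filled and every interval spans 0.

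Between genes, levels were ordered by CPM per kilobase of merged exon length. In MRC1+ TAMs Itgam led at 304 ± 27.9 CPM per kb, followed by Itgb2 at 192 ± 26.1 (SD, n = 3 each), and these did not overlap. Then came Itgb5 at 35.6 ± 3.83 and Itga9 at 34.4 ± 3.29, which overlapped, and Itga6 at 27.0 ± 1.95, Itgb7 at 24.6 ± 0.181 and Itgax at 21.2 ± 4.60, each of which overlapped the next. Itga4 at 8.97 ± 1.2, Itgal at 2.31 ± 0.37 and Itgae at 0.306 ± 0.019 CPM per kb closed the order without overlap. Itga4 has a long annotated 3′ UTR of 6508 bases, and a length that is annotated but not transcribed lowers a value per kilobase.

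In CD11c+ TAMs the order was led by Itgb2 at 379 ± 49.6 and Itgam at 371 ± 48.4 CPM per kb, which overlapped, and then Itgax at 206 ± 11.7 (SD, n = 3 each). Itgb7 followed at 55.7 ± 12.7, Itgb5 at 44.1 ± 1.36 and Itga9 at 31.7 ± 7.11 CPM per kb, with no overlap of neighbours. Itga4 at 22.7 ± 2.45, Itga6 at 16.1 ± 5.46 and Itgal at 12.6 ± 1.35 CPM per kb overlapped each with the next, and Itgae was lowest at 1.16 ± 0.325. Itgax, at rank 3 here, was at rank 7 in MRC1+ TAMs, as the gate implies, and Itgae was the lowest member in all 4 groups.

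In both overexpression groups Itgam and Itgb2 also led. Itgam was at 486 ± 37.3 in miR-511-3p and 468 ± 22.7 CPM per kb in miR-511-3p-mut TAMs, and Itgb2 at 381 ± 55.8 in miR-511-3p and 396 ± 58.7 CPM per kb in miR-511-3p-mut TAMs (SD, n = 3 each). Itgb5, at 59.7 ± 6.84 in miR-511-3p and 65.3 ± 6.04 CPM per kb in miR-511-3p-mut TAMs, came next, and Itgae was again lowest, at 0.107 ± 0.0358 and 0.116 ± 0.0383 CPM per kb in those groups. In miR-511-3p-mut TAMs Itgam overlapped with Itgb2, and Itgb5 with Itgax, the next in order. In miR-511-3p TAMs neither pair overlapped. Itgal, Itgam and Itgb5 had higher CPM in every overexpression library than in any sorted library, and Itgae had lower CPM. These CPM were scaled within each experiment and not on a common scale. How many of all genes part in the same way was not counted, so this is no result about these genes. Whether this is a matter of the cells or of depth and background cannot be told apart.

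Overexpression of miR-511-3p was compared with its mutated form to see what the microRNA changes in TAMs. No integrin transcript passed in this comparison, and 0 of all 14054 genes did by edgeR (0%), with 343 genes (2.44%) at an unadjusted p under 0.05. That share is below the 0.05 that evenly spread p-values would give. The overexpressed Mir511 did not pass the main edgeR fit either (edgeR adjusted p = 0.482). A missing call in this comparison therefore does not show that a gene is unchanged. DESeq2 called 1 gene, Mir511. The libraries of both groups overlapped for all 10 integrins, and 6.38% of all genes tested did not overlap. The median log2 fold change was -0.08 over the integrins and 0.003 over all genes.

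The 4 integrins with a short seed site did not differ beyond their spread. Itgax had 216, 119 and 205 CPM in miR-511-3p TAMs, against 303, 169 and 108 CPM in miR-511-3p-mut TAMs. The libraries of each group spread widely, and the 95% interval of the log2 fold change of -0.10 ran from -1.0 to 0.80. Itgam had 2387, 2649 and 2285 CPM in miR-511-3p TAMs, against 2319, 2478 and 2258 CPM in miR-511-3p-mut TAMs. Its interval was the narrowest of the 10, from -0.15 to 0.25 around 0.05. Itga4 had 224, 284 and 256.5 CPM in miR-511-3p TAMs, against 219.6, 269 and 260.4 CPM in miR-511-3p-mut TAMs, with an interval of -0.24 to 0.30 around 0.03. Itga9 had 236, 270.2 and 272 CPM in miR-511-3p TAMs, against 332, 264 and 198 CPM in miR-511-3p-mut TAMs. The mutated group was the more spread for Itga9, and the interval was -0.44 to 0.39 around -0.03. The adjusted p by edgeR was 1 for each of these, which does not show that the groups are alike.

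The libraries of the 6 integrins without a site overlapped as well. Itgal had 145, 124 and 127 CPM in miR-511-3p TAMs, against 174, 141 and 138 CPM in miR-511-3p-mut TAMs, with a 95% interval of -0.45 to 0.06 around -0.19. Itgb7 had 68.5, 96.3 and 89.7 CPM in miR-511-3p TAMs, against 109.7, 96.5 and 92.8 CPM in miR-511-3p-mut TAMs, with an interval of -0.54 to 0.08 around -0.23. The edgeR adjusted p was 1 for both genes. Itgb2 had 1315, 1193 and 979 CPM in miR-511-3p TAMs, against 1201, 1390.4 and 1033 CPM in miR-511-3p-mut TAMs, with an interval of -0.40 to 0.28 around -0.06. Itga6 had 155, 144 and 193 CPM in miR-511-3p TAMs, against 161, 125 and 152 CPM in miR-511-3p-mut TAMs, with an interval of -0.16 to 0.48 around 0.16. Libraries of both groups overlapped for each of these genes. Itgb5 had 201, 195 and 239.8 CPM in miR-511-3p TAMs, against 217.5, 257 and 222 CPM in miR-511-3p-mut TAMs, with an interval of -0.37 to 0.11 around -0.13. Itgae rested on 13, 8 and 16 reads in miR-511-3p TAMs, against 16, 8 and 16 reads in miR-511-3p-mut TAMs, and its interval of -1.08 to 0.83 was wide.

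The shares of Itgam and Itgax among the beta 2 alpha chains differed by less than their spread here. Itgam took 89.2% ± 2.68 of the alpha chain reads per kilobase in miR-511-3p and 88.1% ± 4.00 in miR-511-3p-mut TAMs, and Itgax 6.96% ± 2.26 in miR-511-3p and 7.44% ± 3.56 in miR-511-3p-mut TAMs (SD, n = 3 each). Itgal took 3.70% ± 0.378 in miR-511-3p and 4.32% ± 0.443 in miR-511-3p-mut TAMs (SD, n = 3 each), a difference larger than either SD with libraries that overlapped. The log2 ratio of Itgam to Itgal was 4.43, 4.80 and 4.56 in miR-511-3p libraries, against 4.13, 4.52 and 4.42 in miR-511-3p-mut libraries, a difference of 0.24 with overlapping libraries (exact permutation p = 0.2). The log2 ratio of Itga4 to Itgb7 was -0.63, -0.78 and -0.82 in miR-511-3p libraries, against -1.33, -0.86 and -0.85 in miR-511-3p-mut libraries. These did not overlap, and the difference of 0.27 reached the smallest exact permutation p of this design, 0.1, with 2 of the mutated libraries lying close to the miR-511-3p ones. T cell genes were higher in the third miR-511-3p-mut library, with 52 reads of Cd3e there and 10 and 4 in the other two, against 3, 2 and 8 in miR-511-3p libraries.

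The partners of the integrins were followed in lists chosen with results of these data known. Of 11 further alpha chains in MRC1+ against CD11c+ TAMs, 3 were lower (Itgad, Itga1 and Itga8) and 1 higher (Itga7), with a median log2 fold change of 0.06, where 9.71% of all genes were lower and 6.91% higher. Itgad, Itga1 and Itga8 kept their calls under each alternative run, while the count of higher ones was 3 with DESeq2 or with no filter, 4 without the first CD11c+ library, and 0 with at least 5 CPM in 3 libraries, without MRC1+ library 3 or without CD11c+ library 2. Itga1, a collagen receptor chain, averaged 14.9 ± 0.741 CPM in MRC1+ and 30.8 ± 0.466 CPM in CD11c+ TAMs (SD, n = 3 each). Itgb1, the partner of alpha 4, 6 and 9, had 1147, 1027 and 1044 CPM in MRC1+ TAMs, against 1058, 980.4 and 970.1 CPM in CD11c+ TAMs, which overlapped. Its log2 fold change was 0.10 ± 0.10 (edgeR adjusted p = 0.52). Itgb4, the epithelial partner of alpha 6, was higher by 0.93 ± 0.22 at 3.77 ± 0.471 CPM in MRC1+ and 1.95 ± 0.361 CPM in CD11c+ TAMs (SD, n = 3 each; edgeR adjusted p = 0.0244). That call was lost in a fit of all 12 libraries and on leaving out library 2 or 3 of MRC1+ or of CD11c+ TAMs. The other 3 beta chains tested did not pass, and the call of Itga7 was lost without MRC1+ library 3 or CD11c+ library 2.

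Among 21 tested genes of integrin activation and cytoplasmic linkage, 7 were lower and 3 higher in MRC1+ TAMs, with a median of -0.31, where 9.71% of all genes were lower and 6.91% higher. Cytip, which binds the cytohesins that act on beta 2, had 109, 117 and 88.4 CPM in MRC1+ TAMs, against 503, 673 and 845 CPM in CD11c+ TAMs, a log2 fold change of -2.68 ± 0.20 (edgeR adjusted p = 0.000143). Parvg, the leukocyte parvin that joins integrins to actin, had 14.9, 13.6 and 10.6 CPM in MRC1+ TAMs, against 66.2, 86.4 and 81.7 CPM in CD11c+ TAMs, at -2.58 ± 0.15 (edgeR adjusted p = 5.96e-05). Both were far apart between the groups, while the kinase gene Ptk2b differed less, at -0.75 ± 0.09 (edgeR adjusted p = 0.0014). Vcl, which codes for the talin binder vinculin, was higher, at 162 ± 6.42 CPM in MRC1+ and 111 ± 13.4 CPM in CD11c+ TAMs (SD, n = 3 each). The call of Vcl was lost without the second or the third MRC1+ library. The count of lower genes in this list was 4 with upper-quartile scaling and 3 with no scaling factors. Without the first CD11c+ library 12 were lower and 5 higher, where 14.8% of all genes were called in each direction, and leaving out any other library gave 3 to 4 lower and 0 to 1 higher. Fermt1 and Ilk were not tested.

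Of 17 tested counter-receptors and matrix ligands, 4 were lower and 1 higher in MRC1+ TAMs, with a median of -0.17, where 9.71% of all genes were lower and 6.91% higher. With the replicate number as a block 6 were lower and 2 higher. Leaving out the first CD11c+ library gave 7 lower and 4 higher, and leaving out the first or the second MRC1+ library 2 lower and 1 higher. Cdh1, E-cadherin and the ligand of the Itgae and Itgb7 pair, had 6.09, 3.69 and 3.78 CPM in MRC1+ TAMs, against 51.5, 59.8 and 65.6 CPM in CD11c+ TAMs. Like both chains of its receptor it was lower in MRC1+ TAMs, at -3.71 ± 0.20 (edgeR adjusted p = 4.53e-05). F11r, the junction protein JAM-A that LFA-1 binds, averaged 13.3 ± 4.41 CPM in MRC1+ and 61.3 ± 11.3 CPM in CD11c+ TAMs (SD, n = 3 each). Jam2, a junction protein that the alpha 4 and beta 1 pair binds, was higher, at 4.47 ± 2.06 CPM in MRC1+ and 1.26 ± 0.0281 CPM in CD11c+ TAMs (SD, n = 3 each). Thbs1, thrombospondin and a matrix ligand of several integrins, was lower, with a log2 fold change of -0.90 ± 0.19 (edgeR adjusted p = 0.0153), a call lost without the first or the second MRC1+ library. The alpha 4 ligand Vcam1 did not pass, with 637, 692.5 and 683 CPM in MRC1+ TAMs, against 375, 579.9 and 359 CPM in CD11c+ TAMs (edgeR adjusted p = 0.0515), and it passed in 8 of the alternatives. In miR-511-3p against miR-511-3p-mut TAMs 0 genes of any of these lists passed by edgeR. The smallest p among the ligands was that of C3, the complement protein whose fragment Mac-1 binds, at 600, 724 and 608 CPM in miR-511-3p TAMs, against 754, 922 and 821 CPM in miR-511-3p-mut TAMs (edgeR adjusted p = 1).

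**Figure D4:**
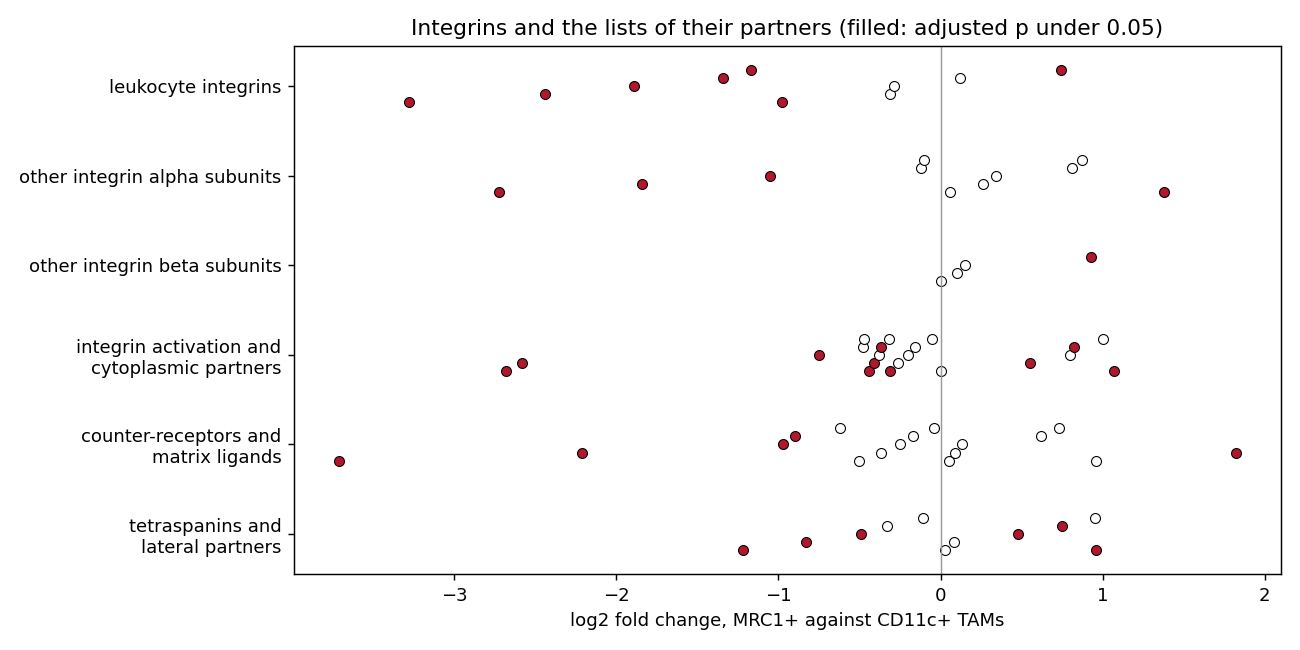
Log2 fold change of MRC1+ against CD11c+ TAMs (horizontal axis) for each tested gene of the integrin and partner lists (rows; points are spread vertically for legibility), from 3 libraries per group. Filled points have an adjusted p under 0.05. The 10 leukocyte integrins have 6 filled points below 0 and 1 above it, and the other alpha chains 3 below and 1 above.

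The genes whose levels ran closest to each integrin were ranked by Pearson correlation of log2 CPM over the 12 libraries, among the 9598 other genes with a mean of at least 10 CPM (9599 for Itgae, which is itself below that level). The libraries fall into 4 groups that share depth and background by experiment, so these correlations describe group differences and carry no p. Itgax ran closest to Parvg (0.985), Fam84b (0.98) and Htr7 (0.969), and Itgal to Tep1 (0.99), Abcc4 (0.988) and Dock8 (0.987). Itgam ran closest to Tmbim4 (0.997), Ifitm2 and H2-K1 (0.991 each). Itgb2 ran closest to Gm14699 (0.996), which the annotation lists as a processed pseudogene, then Msrb1 (0.988) and Rab32 (0.981). Itgae ran closest to Gcnt2 (0.98), Itga4 to Cers6 (0.979) and Itgb5 to Stk38 (0.987). The looser profiles were those of Itgb7 (Slc44a2, 0.931), Itga6 (Ckap2, 0.931) and Itga9 (Mtr, 0.914). Among the integrins themselves, Itgal and Itgb2 (0.95), Itgam and Itgb5 (0.927) and Itgb2 and Itga4 (0.905) ran closest.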

How the data were processed

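RNA sequencing libraries of 12 TAM samples were made with a TruSeq RNA kit, per the labels' protocols. The authors deposited raw whole-number read counts for Ensembl genes, and HTSeq, SAMtools 0.1.12a, TopHat 1.2.0, Bowtie and the build mm9 (NCBIM37) are named in the submitters' processing notes. How HTSeq was set, strand included, is not given in the sources, so a gene's reads cannot be told apart from those of an overlapping or antisense gene. The 5 summary entries that name no gene, among them reads over no gene (7.64% to 26.6% of a library) and reads not aligned uniquely (12.8% to 20.1%), entered neither library sizes nor tests.

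Each comparison was fitted on its 6 libraries with edgeR 4.0.16 in R 4.3.3 (TMM, filterByExpr, quasi-likelihood test, Benjamini-Hochberg adjustment over all genes at 0.05). The SE is the fold change over the square root of F. Levels in CPM use the TMM factors of each comparison. The profile correlations and the check of same-numbered libraries use TMM factors of all 12 libraries together, with no filter. The GENCODE M21 annotation, on the later build GRCm38, gave symbols for 31819 of 36439 identifiers, lengths and 3′ UTRs; RefSeq gave the microRNA and promoters. Alternatives were RLE, upper-quartile and no scaling, other filters, DESeq2 1.42.0, all 12 libraries, the replicate block and each library left out. The steps were tested on simulated data.

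Libraries of a group differed beyond sampling noise (chi-square per degree of freedom 9.18 to 33.0). Deviations of same-numbered libraries correlated at 0.105, 0.335 and 0.247 in the sorted and 0.147, 0.26 and 0.462 in the overexpression groups. All exceeded 0.1, a hint of pairing from the data rather than from any label. Within this check, miR-511-3p library 1 lay nearer to mutated library 2 (0.165). The main fits and permutation tests are unpaired, and the block is given for each integrin call and list count that it changed. Between the sorted groups the block gave 10 lower dendritic cell, 3 lower NK cell, and 1 higher and 1 lower T cell genes. It gave 2 higher and 1 lower macrophage genes, and 3 higher and 1 lower epithelial and carcinoma genes. Activation and linkage genes were 2 higher and 6 lower, and tetraspanins with other membrane partners 3 higher and 2 lower.

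The 10 integrins and the lists were chosen with earlier results of these data known. The genes named were the members, up to 4 genes of lowest p per list and the 3 genes of closest profile per member; others, such as Flt3, Xcr1, Cd3e and Vcam1, were chosen after their values were seen.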

Additional observations from a re-analysis of the deposited data

How the results depend on the processing

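Between the sorted groups Itgal, Itgae, Itgb2, Itgb7, Itga4 and Itgax kept direction and call under every alternative in which they were tested; Itgae was not tested with at least 5 CPM in 3 libraries, and with that filter 5 integrins were lower. The replicate block gave 7 lower integrins, Itgb5 being the added one, and changed no other integrin call. Leaving out a library gave 1270 to 4707 genes passing (390 to 2356 higher, 860 to 2351 lower), 0 to 1 integrins higher and 6 to 7 lower; the most passed without the first CD11c+ library. With no scaling factors 1636 genes were higher and 1110 lower, and with upper-quartile scaling 1348 and 1325, while the median of all genes was 0.137 without factors. Reads not divided by length moved the differences in beta 2 share to -1.88 (Itgal) and -0.349 (Itgad) percentage points. For miR-511-3p 1 gene passed with DESeq2 and with all 12 libraries (Mir511, 1 higher) and 1 with the replicate block (Hspg2, 1 lower). There, leaving out a library turned the sign of fold changes that had not passed, with ranges of -0.39 to 0.38 for Itgax, -0.01 to 0.10 for Itgam, -0.35 to 0.14 for Itgae, -0.16 to 0.06 for Itgb2, -0.06 to 0.12 for Itga4 and -0.20 to 0.17 for Itga9. The cause of these shifts was not tested. Depth limits Itgae, which rests on 8 to 90 reads per library.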

Other observations

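Genes of the membrane partners that sit beside integrins, tetraspanins and receptors such as uPAR, split between the sorted groups. Of 11 tested in MRC1+ against CD11c+ TAMs, 3 were higher and 3 lower, with a median log2 fold change of 0.03, where 6.91% of all genes were higher and 9.71% lower. Leaving out a library gave 2 to 4 higher and 2 to 3 lower. Cd37, a leukocyte tetraspanin, had 35.1, 30.9 and 37.4 CPM in MRC1+ TAMs, against 14.8, 18.0 and 20.7 CPM in CD11c+ TAMs, a log2 fold change of 0.96 ± 0.14 (edgeR adjusted p = 0.00303). Cd63, a tetraspanin of lysosomes and secretory granules, had 54.5, 50.7 and 46.6 CPM in MRC1+ TAMs, against 28.8, 32.9 and 28.1 CPM in CD11c+ TAMs, at 0.75 ± 0.10 (edgeR adjusted p = 0.00219). Cd9 lay the other way, at -0.83 ± 0.13 (edgeR adjusted p = 0.00492), as did Plaur, the urokinase receptor that binds Mac-1, with 163, 145 and 169 CPM in MRC1+ TAMs, against 253, 354 and 507 CPM in CD11c+ TAMs.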
